A study of Homo sapiens with 4 samples.

Results

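The genes described here encode 8 chemokines, namely CCL2, CCL5, CCL20, CCL24, CCL26 and CCL28 of the CC class together with CX3CL1 and CXCL16, which are made as membrane-bound proteins. They were taken by name from the 50868 genes counted in each library, and each of the 8 names matched 1 gene. RNA-seq was performed on A549 cells, an established human lung adenocarcinoma line, as 2 control libraries and 2 libraries of cells overexpressing USP12, a deubiquitinase. The methods of the study put tagged human USP12 in pLVX vectors, and its legends call the control cells a vector control (EV). All 4 libraries share the A549 background, and the sources used here do not say whether the libraries of a group came from separate cultures. The tests therefore measure the spread between these libraries, which may be technical.

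Chemokines are small secreted proteins that bind G protein-coupled receptors and steer the migration of leukocytes. In CC chemokines the first cysteines of the protein are adjacent, whereas CX3CL1 and CXCL16 carry the chemokine domain on a mucin-like stalk with a membrane anchor, from which the proteases ADAM10 and ADAM17 can release it. Airway and lung tumour epithelium makes several of them, and the transcription of CCL2, CCL5, CCL20 and CX3CL1 is known to respond to NF-κB, while that of the eotaxins CCL24 and CCL26 responds to interleukin-4 and interleukin-13 through STAT6. The comparison addresses which of these ligands differed at the transcript level when USP12 was overexpressed.

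Libraries held between 14280081 and 16305356 counts, and 15222 genes passed the filter on low counts. Levels are given as CPM, counts scaled by library size and TMM factor, and 3 counts, the floor used here, equalled between 0.166 and 0.227 CPM. The floor covers counting error only. Counts of USP12 itself were 201 and 621 without and 24235 and 32274 with overexpression, and the fitted difference was 6.32 on the log2 scale (SE 0.57, adjusted p = 0.0975 with the quasi-likelihood test of edgeR). The epithelial keratin KRT8 was detected at 2515 CPM or more in every library. Of 4 endothelial markers, CDH5 and PECAM1 were lower in USP12 cells at an unadjusted p under 0.05, beside 4.55% of all tested genes. CDH5, with 136 and 96 against 2 and 5 counts, passed the low-count filter through its control libraries alone. The summed level of 6 epithelial markers was 12896 and 7474 CPM in controls and 7316 and 6794 CPM in USP12 cells. Of the 6, 4 lay below both controls in both USP12 libraries, which held for 17.0% of all tested genes. At an unadjusted p under 0.05, 1 of the 6 was lower, KRT19, and 0 were higher. KRT19 had 437 and 114 CPM in controls and 68.7 and 55.9 CPM in USP12 cells. Among 7 haematopoietic markers PTPRC and CD3E had at most 1 count in any library, while 3 were tested, with none at an unadjusted p under 0.05. These were CD68, with 46.8 to 79.0 CPM, CD14, with 32.1 and 4.71 CPM in controls and 13.3 and 12.1 CPM in USP12 cells, and ITGAM, with 10.8 and 2.38 against 1.66 and 2.15 CPM. All 3 were higher in control replicate 1 than in control replicate 2, like the chemokines and each of the 6 epithelial markers. The same held for 49.5% of all tested genes. The summed level of the haematopoietic list was 122 and 54.2 CPM in controls and 78.5 and 61.9 CPM in USP12 cells. That of the 4 endothelial markers was 15.4 and 8.59 CPM in controls against 0.432 and 1.45 CPM, with VWF and TEK at no more than 3 counts, and the part of these markers in the results was not tested. Of 6 fibroblast markers 2 were tested, COL1A1 and LUM, with none at an unadjusted p under 0.05. COL1A1 had 13.0 and 2.60 CPM in controls and 18.9 and 14.6 CPM in USP12 cells. In bulk RNA, fewer cells of a type and less RNA per cell cannot be told apart. The other 3 libraries share a heading prefix that control replicate 1 lacks, and its meaning is not given. Over the tested genes, the log2 ratio of the 2 controls had an SD of 1.32 and that of the 2 USP12 replicates 0.62. The controls thus differed more from each other, but this ratio cannot show which control is unusual. Each chemokine is given also without control replicate 1, which is the comparison within the shared prefix.

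CCL5 and CCL20 had the lowest transcript levels relative to control among the 8 genes, CX3CL1, CXCL16 and CCL28 were lower by smaller amounts, CCL2 was below control replicate 1 but close to control replicate 2, and the eotaxins CCL24 and CCL26 had positive log2 fold changes. In 5 of the 8 genes both USP12 libraries lay below both control libraries, which held for 17.0% of the 15222 tested genes. In 1 gene, CCL24, both lay above, which held for 19.5%. Of the 8 genes, 0 passed an adjusted p of 0.05 in the quasi-likelihood test of edgeR, and neither did any other gene (0%). At an unadjusted p under 0.05 there were 3 lower genes, CCL5, CCL20 and CXCL16, and 0 higher genes, beside 4.55% and 3.04% of all tested genes. DESeq2 and the edgeR exact test each called 2 of the 8 genes, CCL5 and CCL20, at an adjusted p under 0.05, beside 2.67% and 2.82% of all tested genes. Of the 8 genes, 4 (CCL5, CCL20, CCL24 and CCL28) passed the low-count filter through their higher group alone. Their entry into the tests was thus not independent of the difference, which makes these counts and the median a description. The median log2 fold change of the 8 genes was -1.45, against -0.06 for all tested genes. Without control replicate 1 the median of the 8 genes was -0.52. In that comparison 5 genes lay below control replicate 2 in both USP12 libraries and 2 lay above, beside 40.2% and 41.5% of all tested genes.

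**Figure D1:**
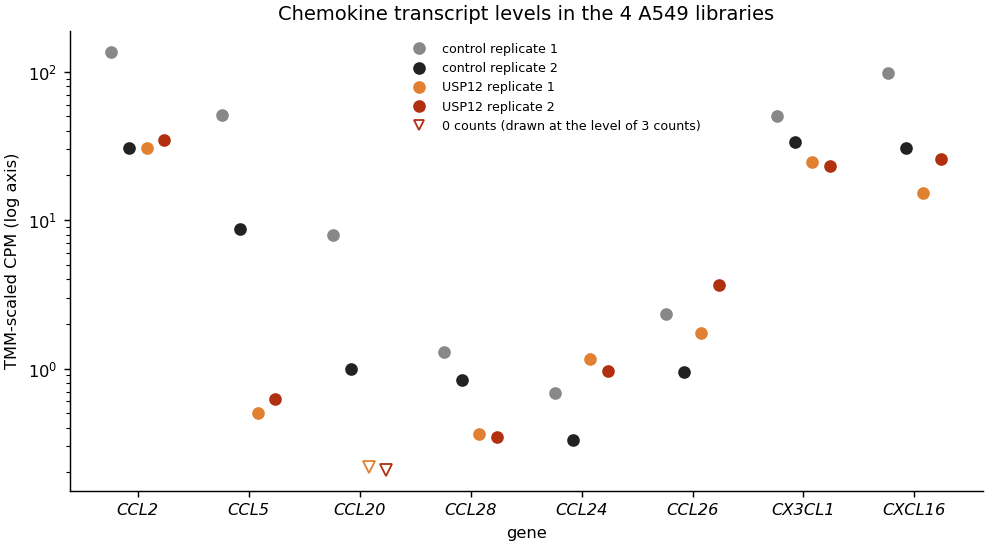
TMM-scaled CPM (log axis) of each of the 8 chemokine genes in control replicates 1 and 2 and USP12 replicates 1 and 2, where each point is 1 library and open triangles are 0 counts drawn at the level of 3 counts. Control replicate 1 is above control replicate 2 in all 8 genes, and the USP12 points of CCL5 and CCL20 lie below both controls.

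The spread between the control libraries bears on every one of these values. Control replicate 1 was above control replicate 2 for 8 of 8 genes, whereas this was the case for 49.5% of the tested genes. The median log2 ratio of control replicate 1 over control replicate 2 was 1.44 for the 8 genes and -0.01 for all tested genes. Between the USP12 replicates the median log2 ratio of the 8 genes was -0.09. The fitted differences of all 8 genes were more negative, or less positive, without control replicate 2 than without control replicate 1. This follows from the order of the controls and is no separate finding.

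**Figure D2:**
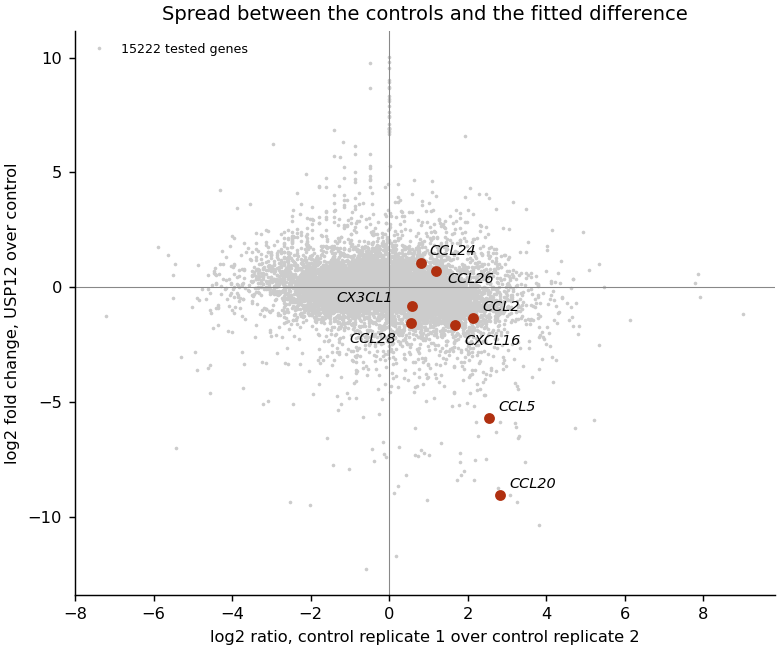
For the 15222 tested genes (grey) and the 8 chemokines (red, labelled), the x axis gives the log2 ratio of control replicate 1 over control replicate 2 and the y axis the fitted log2 fold change of USP12 over control cells. The 8 chemokines lie to the right of 0 on the x axis, at 2.54 for CCL5 and 2.84 for CCL20.

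CCL5 (ENSG00000271503, GRCh38 chromosome 17, 35871491 to 35880793, minus strand), the chemokine also known as RANTES, attracts T cells, monocytes and eosinophils through receptors that include CCR1 and CCR3. Its level was 51.3 CPM for control replicate 1, 8.70 for control replicate 2, 0.504 for USP12 replicate 1 and 0.623 for USP12 replicate 2, from 678, 157, 7 and 9 counts. The 2 groups did not overlap, and the gap between the lower control and the higher USP12 library was wider than the gap between the USP12 libraries. Compared with the gap between the controls, it was narrower in CPM and wider on the log2 scale. The mean was 30.0 ± 30.1 CPM (SD, n = 2) in control cells and 0.564 ± 0.0845 (SD, n = 2) in USP12 cells, 53.2-fold lower. The fitted log2 fold change of CCL5 was -5.71 (standard error 1.04, 95% interval -8.23 to -3.19, adjusted p = 0.210 with the quasi-likelihood test of edgeR). Against control replicate 2 alone it was -3.93, and against control replicate 1 alone it was -6.47. CCL5 passed the low-count filter through its control libraries alone, so its tests are no independent support for the difference. An unnamed gene, ENSG00000270240, lies on the opposite strand over CCL5 without sharing exon bases.

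CCL20 (ENSG00000115009, chromosome 2, 227805739 to 227817564, plus strand) is the ligand of CCR6 and recruits dendritic cells and Th17 cells to epithelia. Control replicate 1 had 105 CCL20 counts, control replicate 2 had 18, and both USP12 libraries had 0. The control values are 7.95 and 0.997 CPM, and 0 counts allow up to 0.216 and 0.208 CPM in the USP12 libraries. Set against the floor of 3 counts per library, CCL20 was at least 21.1-fold lower than the mean of both controls and at least 4.71-fold lower than control replicate 2. The gene passed the low-count filter through its control libraries alone. The fitted log2 fold change of CCL20 was -9.05 (standard error 2.02, adjusted p = 0.316 with the quasi-likelihood test of edgeR), a value that depends on the prior count of the fit because a group is at 0. Without control replicate 1 its adjusted p was 0.0771 in the same edgeR fit.

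Sequence before the annotated start was at hand for CCL20, CCL24, CCL26 and CCL28, 4 of the 8 genes, in RefSeq windows of GRCh38.p14 that run from 250 bases before to 50 bases after a gene start. CCL2, CCL5, CX3CL1 and CXCL16 were not matched. The 200 bases before the start are shown for CCL20, at 0 counts in USP12 cells, and for CCL24, above control in USP12 cells, with motif matches in capitals. The capitals mark a κB consensus match in CCL20 (chr2:227813642-227813841, plus strand) and an AP-1 match in CCL24 (chr7:75823373-75823572, minus strand). Positions count from the RefSeq start, and the longer GENCODE model of CCL20 begins further upstream.
CCL20: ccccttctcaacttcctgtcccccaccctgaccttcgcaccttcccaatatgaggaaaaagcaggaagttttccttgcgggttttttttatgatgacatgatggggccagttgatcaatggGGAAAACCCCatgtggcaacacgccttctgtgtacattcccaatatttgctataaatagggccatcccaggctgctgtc
CCL24: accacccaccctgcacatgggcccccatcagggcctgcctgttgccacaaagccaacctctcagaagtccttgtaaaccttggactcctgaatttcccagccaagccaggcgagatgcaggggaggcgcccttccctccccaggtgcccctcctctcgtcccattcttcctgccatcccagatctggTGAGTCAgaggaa
The search covered both strands for the κB consensus, the interferon-stimulated response element, the AP-1 motif TGANTCA and the STAT6 palindrome, in which TTC and GAA stand 4 bases apart. The κB match of CCL20, on the minus strand from -79 to -70 relative to the start, had no counterpart in the windows of CCL24, CCL26 and CCL28, and 5.91% of all 35116 windows hold that consensus. The AP-1 match shown for CCL24 runs from -13 to -7, the other CCL24 window has a match from -142 to -136, and 7.71% of all windows hold the motif. No match to the interferon-stimulated response element (3.57% of all windows) or the STAT6 palindrome (6.44%) was found in the windows of the 4 genes. A match describes letters in the window and is no sign of binding.

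CCL2 (ENSG00000108691, chromosome 17, 34255274 to 34257208, plus strand), monocyte chemoattractant protein-1, recruits monocytes through CCR2. Control replicate 1 had 136 CPM, control replicate 2 had 30.8, USP12 replicate 1 had 30.7 and USP12 replicate 2 had 34.8. One library, control replicate 1, stood above the other 3, which differed little, so the groups overlapped. The log2 fold change of CCL2 was -1.34 (standard error 0.70, 95% interval -3.04 to 0.36, adjusted p = 0.800 with the quasi-likelihood test of edgeR). It was 0.091 without control replicate 1, the opposite direction, and -2.04 without control replicate 2. The direction for CCL2 rests on control replicate 1.

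CCL28 (ENSG00000151882, chromosome 5, 43376645 to 43412391, minus strand), a mucosal chemokine that binds CCR10 and CCR3, was near the lower limit of detection. Its counts were 17 and 15 in control cells and 5 in each USP12 library, or 1.29, 0.831, 0.360 and 0.346 CPM. Both USP12 values lay below both controls. For CCL28 the log2 fold change was -1.56 (standard error 0.86, 95% interval -3.65 to 0.54, adjusted p = 0.823 with the quasi-likelihood test of edgeR), and -1.22 without control replicate 1. As for CCL20, the gene passed the filter through the control libraries.

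CCL24 and CCL26, eotaxin-2 and eotaxin-3, attract eosinophils through CCR3 and are neighbours on chromosome 7, where 20928 bases separate CCL26 (ENSG00000006606, 75769533 to 75789896) from CCL24 (ENSG00000106178, 75810825 to 75823356), both on the minus strand. The counts of CCL24 were 9 and 6 in control cells against 16 and 14 in USP12 cells, or 0.681, 0.332, 1.15 and 0.970 CPM. It was the gene among the 8 with both USP12 libraries above both controls, and it passed the low-count filter through its USP12 libraries. For CCL24 the log2 fold change was 1.07 (standard error 0.86, 95% interval -1.01 to 3.15, adjusted p = 0.909 with the quasi-likelihood test of edgeR). CCL26 had 31 and 17 counts in control cells, and 24 and 53 in USP12 cells. With 2.35 and 0.942 CPM against 1.73 and 3.67 CPM, the groups of CCL26 overlapped, and USP12 replicate 2 was above the other 3 libraries. For CCL26 the log2 fold change was 0.72 (standard error 0.79, 95% interval -1.20 to 2.65, adjusted p = 0.940 with that edgeR test). Both values moved with single libraries. Without control replicate 1 they were 1.65 for CCL24 and 1.51 for CCL26, and without control replicate 2 they were 0.64 and 0.21. Without USP12 replicate 2 that of CCL26 was 0.086.

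CX3CL1 (ENSG00000006210, chromosome 16, 57372477 to 57385044, plus strand), fractalkine, binds CX3CR1 on monocytes, natural killer cells and T cells and serves as an adhesion molecule while it is on the membrane. Its levels were 49.9 CPM and 33.4 CPM in control replicates 1 and 2, and 24.8 CPM and 23.0 CPM in USP12 replicates 1 and 2. The groups did not overlap, and the log2 ratio of the 2 controls was 0.58. The mean was 41.6 ± 11.7 CPM (SD, n = 2) in control cells and 23.9 ± 1.25 (SD, n = 2) in USP12 cells. For CX3CL1 the log2 fold change was -0.80 (standard error 0.43, 95% interval -1.84 to 0.23, adjusted p = 0.808 with the quasi-likelihood test of edgeR). Leaving out control replicate 1 gave -0.48, and leaving out control replicate 2 gave -1.05.

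CXCL16 (ENSG00000161921, chromosome 17, 4733533 to 4739928, minus strand), the ligand of CXCR6 on T cell subsets, also takes up oxidized lipoproteins in its membrane-bound form. Control replicates 1 and 2 had 98.5 and 30.5 CPM, and USP12 replicates 1 and 2 had 15.3 and 26.0 CPM. The groups did not overlap, but control replicate 2 was closer to both USP12 libraries than to control replicate 1. For CXCL16 the log2 fold change was -1.64 (standard error 0.65, 95% interval -3.24 to -0.05, adjusted p = 0.636 with the quasi-likelihood test of edgeR). Without control replicate 1 it was -0.57, and with control replicate 1 as the lone control it was -2.25. MED11 and ZMYND15 on the opposite strand share exon bases with CXCL16, and the sources used here do not say whether counting respected strand, so a part of its counts is uncertain.

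**Figure D3:**
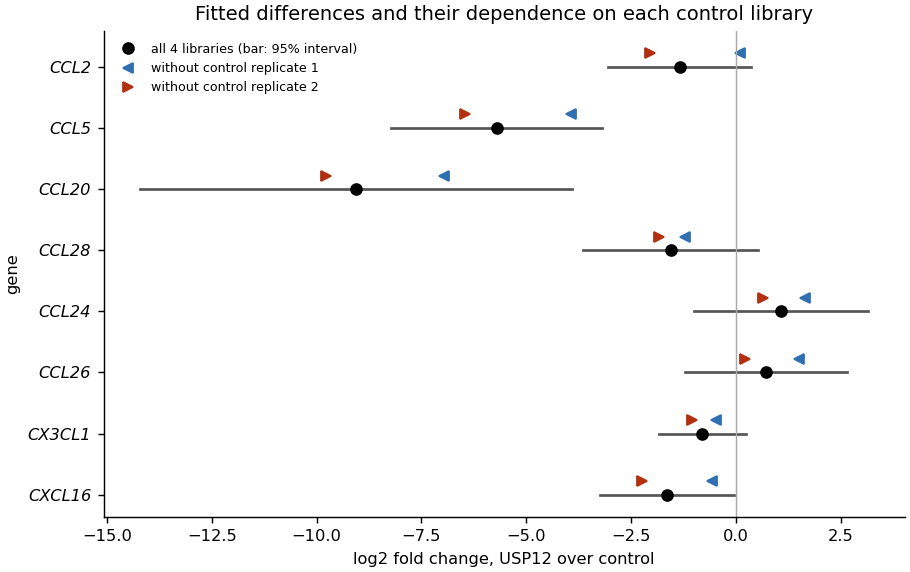
Log2 fold change of USP12 over control cells (x axis) for each of the 8 genes (y axis). Black points are the fit to all 4 libraries with the 95% interval as a bar, and triangles are the fits without control replicate 1 (blue) or without control replicate 2 (red). The intervals of CCL5, CCL20 and CXCL16 lie below 0, and the blue triangle of CCL2 lies at 0.091.

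Levels of different genes were compared after division by the length of the annotated exons in kilobases. On this scale CCL2 was the most abundant of the 8 in mean over the 4 libraries, with 29.9 CPM per kilobase. It was followed by CXCL16 with 15.2, CCL5 with 11.2, CX3CL1 with 5.50, CCL26 with 3.09, CCL20 with 1.40, CCL24 with 0.538 and CCL28 with 0.156. The ranges over the 4 libraries overlapped between each gene and the next in this order. Compared within each library, CCL2 was above CXCL16 and CCL24 above CCL28 in all 4. The other neighbouring pairs changed order between libraries. These differences between genes were not tested. The order pools groups and depends on control replicate 1. Without it CCL5 was at 2.40 CPM per kilobase, below CX3CL1 at 4.54 and CCL26 at 3.01, and CCL20 was at 0.209, below CCL24 at 0.561. The range of CX3CL1, from 3.86 to 8.38, did not overlap those of CCL24, up to 0.790, and CCL28, up to 0.284.

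CCL5 took a smaller share of this chemokine RNA in both USP12 libraries than in either control. The summed length-scaled level of the 8 genes reached 160.4 in control replicate 1, against 41.2 in the other control library and 29.2 and 37.5 in USP12 replicates 1 and 2. The share of CCL5 in that sum was 23.5% and 15.5% in control cells and 1.27% and 1.22% in USP12 cells. CCL2 made up between 38.6% and 54.4% of it in all 4 libraries. CCL26 accounted for 2.08% and 3.25% in control cells and for 8.42% and 13.9% in USP12 cells. These shares depend on one another and were not tested.

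**Figure D4:**
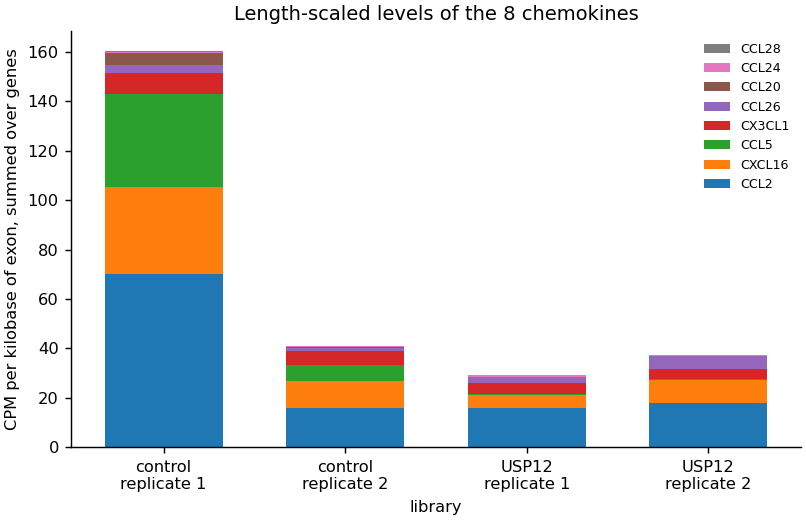
Stacked bars of CPM per kilobase of exon for the 8 chemokines in each of the 4 libraries (x axis), starting at 0. The bar of control replicate 1 reaches 160.4 and the other 3 lie between 29.2 and 41.2, and the green CCL5 segment is barely visible in the USP12 libraries.

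The remaining CC ligands were close to absent. Of 20 further CC ligand genes, 14 had 0 counts in all 4 libraries, 18 never exceeded 3 counts, and none passed the low-count filter. The exceptions were CCL15, with 4 counts in control replicate 2, and CCL22, a ligand of CCR4 on regulatory T cells. CCL22 had 37 counts in control replicate 1 and 0 in each of the other 3 libraries.

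Transcripts of the receptors for the 8 ligands gave few counts or none. CCR2, CCR3, CCR6 and CXCR6 had 0 counts in all 4 libraries. CCR10 counts were 18 in control replicate 1, 0 in the other control, and 1 and 7 in the USP12 libraries. CX3CR1 had 18 counts in control replicate 2, 3 in USP12 replicate 1 and 0 in the other two. Of 13 receptor genes, 1 was tested, GPR75, an orphan receptor for which CCL5 has been proposed as a ligand, and its log2 fold change was 0.13 (standard error 0.82).

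The sheddases of CX3CL1 and CXCL16 were expressed throughout. ADAM10 had 74.6 and 111 CPM in control cells and 63.6 and 79.4 CPM in USP12 cells, a log2 fold change of -0.38 (95% interval -1.33 to 0.58). ADAM17 had 36.8 and 62.3 CPM against 47.9 and 51.6 CPM, a log2 fold change of 0.00 (95% interval -1.02 to 1.03). For both proteases the groups overlapped. Of the 7 tested genes of the shedding and cleavage list, 0 passed an adjusted p of 0.05 with edgeR. Beside 4.55% and 3.04% of all tested genes, 1 lower and 1 higher gene of the list had an unadjusted p under 0.05. These were DPP4, a peptidase that trims CCL5, and MMP2, a gelatinase. DPP4 had 5.75 and 1.05 CPM against 0.288 and 0.416 CPM (log2 fold change -3.23, standard error 1.06). It passed the low-count filter through its control libraries alone, so its test is no independent support for the difference. MMP2 had 14.8 and 17.8 CPM against 58.8 and 34.4 CPM (log2 fold change 1.52, standard error 0.46).

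Of 10 genes around interleukin-4 and interleukin-13 signalling, which induces the eotaxins, 5 passed the filter, namely IL4R, IL13RA1, JAK1, TYK2 and STAT6. The common gamma chain IL2RG had 12 and 5 counts in control cells and 0 in both USP12 libraries, and the decoy receptor IL13RA2 had 0 in all 4. STAT6 had 269 and 239 CPM in control cells and 201 and 205 CPM in USP12 cells (log2 fold change -0.32, standard error 0.33). For STAT6 both USP12 libraries lay below both controls, which held for 17.0% of all tested genes. Both USP12 libraries lay above both controls for IL13RA1, with 86.5 and 116 against 136 and 147 CPM. The same held for JAK1, with 108 and 157 against 172 and 217 CPM, and for 19.5% of all tested genes. The median log2 fold change of the 5 tested genes was 0.32. Of the 5 tested genes of that list, 0 had an unadjusted p under 0.05 in either direction, beside 4.55% lower and 3.04% higher of all tested genes. IL4 and IL13 themselves had at most 1 count in any library. The interleukin-17 pathway induces CCL20 in epithelia. Of its 6 tested genes, 1 was lower at an unadjusted p under 0.05 and 0 were higher, beside the same shares. That gene was ZC3H12A, the endoribonuclease regnase-1, with 175 and 51.4 CPM against 28.9 and 26.0 CPM (log2 fold change -2.04, standard error 0.63, adjusted p = 0.436 with the quasi-likelihood test of edgeR). Chemokines are held at cell surfaces by heparan sulfate. Of its 7 tested carriers 1, SDC4, was lower at an unadjusted p under 0.05 and 0 were higher, beside the same shares. SDC4 was measured with 69.7 and 48.8 CPM against 25.8 and 22.2 CPM (log2 fold change -1.30, standard error 0.41). CD44, the carrier with the highest mean, had 518 and 399 CPM against 671 and 674 CPM (log2 fold change 0.55, standard error 0.32).

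The tested genes with the nearest pattern to each chemokine were found by the Euclidean distance of log2 CPM centred over the 4 libraries, for the 6 genes with a mean of at least 1 CPM. For CCL5 the nearest was CCL20 (distance 0.52), followed by the protease inhibitor gene SERPINA3 (0.54) and CHST2 (0.58). SERPINA3 had 164.5 and 17.8 CPM in control cells and 1.58 and 1.45 CPM in USP12 cells. Another identifier of that name differed less, with 19.2 and 5.82 CPM in control cells and 2.88 and 4.43 CPM in USP12 cells. Nearest to CCL20 were SAA2 (0.20), which encodes a serum amyloid protein, CES1P1 (0.27) and PI3 (0.34), which encodes elafin. SAA2 had 8.02 and 0.831 CPM in control cells and 0 counts in both USP12 libraries.

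CCL2 was nearest to AKT1S1 (0.07), SMIM8 (0.11) and BAIAP3 (0.14), and AKT1S1 had 355 CPM in control replicate 1 and between 81.4 and 90.5 CPM in the other 3 libraries. The nearest genes to CX3CL1 were APBA2, PSMB10 and UNC93B1, each at a distance of 0.05. CXCL16 was nearest to FZD9 (0.10), an additional identifier named SERPINA3 (0.14) and CRIP1 (0.19), and CCL26 to PVRL4 (0.10), GARNL3 (0.11) and FBXL7 (0.12). With 4 libraries, such distances describe these samples alone.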

How the data were processed

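Total mRNA of 4 A549 samples was sequenced from stranded libraries. The authors removed adaptors and ribosomal RNA reads with Seqtk, aligned to GRCh38 with HISAT2 2.0.4 and counted unique fragments with StringTie 1.3.0, per the labels and the methods. The values deposited by the authors are raw counts per gene. Annotation release and strand use are not given in the sources used here.

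Counts were fitted in R 4.3.3 with edgeR 4.0.16 (filterByExpr, TMM, quasi-likelihood test, Benjamini-Hochberg adjustment over 15222 genes). Standard errors derive from the F statistic and are approximate. Log2 CPM used a prior count of 2. The smallest p of an exact permutation test is 0.333 at this group size. Positions, exon lengths and overlaps came from GENCODE release 44, and start windows from RefSeq GRCh38.p14. Code was tested on simulated data.

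The 8 genes and the gene lists were chosen with earlier results of these data known. Named genes were the 8 members, USP12, their receptors and sheddases, list genes with an unadjusted p under 0.05 or the highest mean CPM, and the 3 nearest patterns per member. CCL15, the interleukin-4 and interleukin-13 genes other than STAT6, and the markers were named after their values were seen. Alternatives were DESeq2 1.42.0 size factors and Wald test, no filter, a mean of at least 10 counts, the edgeR exact test, the replicate number as a block, the longest transcript as length, and each library left out.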

Additional observations from a re-analysis of the deposited data

How the results depend on the processing

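Of the 8 chemokines, 2 (CCL5 and CCL20) had an adjusted p under 0.05 without a filter on low counts, under the DESeq2 Wald test, the edgeR exact test and the replicate block, and 0 with DESeq2 size factors or a mean of at least 10 counts. Without a library the count was between 0 and 5. It was 1 (CCL5) without control replicate 1 and 5 (CCL2, CCL5, CCL20, CX3CL1 and CXCL16) without control replicate 2. Of all tested genes, 10.8% and 33.0% were called in those 2 fits. With all 4 libraries, calls over all genes were 0 in the main fit. Without a filter they were 361 lower and 167 higher, or 2.13% of the 24800 genes tested in that fit. They were 273 and 133 with the Wald test (2.67%), 262 and 167 with the exact test (2.82%) and 251 and 153 with the block (2.65%). The log2 fold change of CCL2 reversed to 0.091 without control replicate 1, and over all libraries left out it ranged from -2.04 to 0.091. The 8 log2 fold changes kept their direction and side of the threshold in 65 of 80 values, passed the threshold in 14 and reversed in 1. The adjusted p of CCL5 ranged from 6.58e-11 to 0.220. With a library left out, an alternative chosen after seeing the data, between 5 and 6 of the 8 genes lay below the controls, beside 24.5% to 42.3% of all tested genes, and between 1 and 2 lay above, beside 27.0% to 45.6%.

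The log2 fold change of USP12 passed the threshold at 6.33 unfiltered, with the Wald test (6.31), the exact test (6.32) and the replicate block (6.43), and ranged from 5.85 to 7.04 without a library. The median of the 8 genes ranged from -1.93 to -0.52 in those fits. Same-numbered samples correlated at 0.15 in their deviations from the group means, and with 2 pairs the numbers were not taken as pairing. With the block, unfiltered or lacking a USP12 library, edgeR set infinite prior degrees of freedom, so a gene's own spread did not enter. Lone libraries were assumed to vary like the other group. Counts of 18 or fewer limit CCL24 and CCL28. The order of the length-scaled levels was the same with the longest transcript, but not without control replicate 1.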
